A study of Mus musculus with 12 samples.

Results

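Pkm, the gene for the pyruvate kinase of most cells, was examined together with its paralog Pklr and 5 splicing regulators of its transcript, Ptbp1, Ptbp2, Hnrnpa1, Hnrnpa2b1 and Srsf3. The 7 genes were chosen by symbol, out of 57180 genes in the deposited gene table, and together hold 73 of its 149132 transcripts, 11 of them from Pkm. RNA-seq had been made from mouse E14 embryonic stem cells that carry a doxycycline-inducible CRISPR interference repressor based on dCas9, which silences a gene where a guide RNA directs it. All libraries come from derivatives of 1 clone of this line. By the study's description all 4 groups had doxycycline, which the labels do not state. The Neg cells carry a scrambled guide, and the 3xKD cells carry guides against Pcx, Me1 and Me2, the genes of pyruvate carboxylase and of the cytosolic and a mitochondrial malic enzyme. Each line was profiled as naive embryonic stem cells (ESCs, in 2iLIF) and after 2 days of conversion to epiblast-like cells (EpiLCs day 2, in Activin A, Fgf2 and XAV939), with 3 replicates in each of the 4 groups. Whether replicates are separate cultures is not given in the labels, so p-values measure the spread between these libraries.

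Pyruvate kinase carries out the last step of glycolysis, turning phosphoenolpyruvate into pyruvate. Pkm holds a pair of neighbouring exons of equal length that are used one in place of the other: the M1 exon is used in muscle, heart and brain, and the M2 exon in embryonic and proliferating cells. Ptbp1, Hnrnpa1 and Hnrnpa2b1 bind around the M1 exon and repress it, Srsf3 promotes the M2 exon, and Ptbp2 is the neuronal paralog of Ptbp1. Pklr encodes the enzyme of liver and red blood cells.

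The exons that the following measurements turn on lie on chromosome 9 of GRCm39, on the plus strand: the M1 exon at chr9:59582312-59582478 and the M2 exon at chr9:59582851-59583017, both 167 bases. They share 103 bases and differ at 64, an identity of 61.68%. Capitals mark the bases that differ between them, since reads that cover these bases tell the forms apart.
M1 exon: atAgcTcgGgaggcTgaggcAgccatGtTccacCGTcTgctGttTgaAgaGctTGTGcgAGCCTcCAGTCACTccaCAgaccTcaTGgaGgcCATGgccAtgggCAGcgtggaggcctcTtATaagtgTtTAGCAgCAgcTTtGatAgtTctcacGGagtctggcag
M2 exon: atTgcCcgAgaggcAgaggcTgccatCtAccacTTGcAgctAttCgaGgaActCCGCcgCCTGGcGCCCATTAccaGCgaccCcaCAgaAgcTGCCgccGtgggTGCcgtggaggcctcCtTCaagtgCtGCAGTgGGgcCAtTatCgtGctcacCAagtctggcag

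The 100 bases before each exon, and the 50 after M1, are shown because the polypyrimidine tract binding proteins bind runs of C and T. TCTT was searched on the transcribed strand in the 100 bases upstream, and TAGGG, a motif of hnRNP A1, in the 50 bases downstream; matches are in capitals.
M1 upstream, chr9:59582212-59582311: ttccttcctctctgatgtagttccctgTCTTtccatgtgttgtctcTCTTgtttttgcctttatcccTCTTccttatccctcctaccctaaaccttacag
M1 downstream, chr9:59582479-59582528: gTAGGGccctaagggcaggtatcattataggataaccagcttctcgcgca
M2 upstream, chr9:59582751-59582850: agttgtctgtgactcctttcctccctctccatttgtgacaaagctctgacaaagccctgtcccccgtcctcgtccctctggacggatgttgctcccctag

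The M1 window held 3 copies of TCTT and the M2 window 0, where 9.32% of 220177 internal exons of the annotation hold at least 3, and the median is 1. Pyrimidines make up 79 of the 100 bases before M1 and 67 before M2, against a mean of 55.1 over those exons; 0.487% of exons had at least as many as M1. TAGGG stood once after M1, in a window where 4.76% of exons hold it, and not after M2. These are matches of letters, not measured binding sites.

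Ptbp1 and Ptbp2 each carry a 34-base exon whose inclusion PTB proteins repress. The Ptbp2 exon (chr3:119518261-119518294, minus strand) has 6 TCTT upstream, a number that 0.232% of exons reach, and the Ptbp1 exon (chr10:79697848-79697881, plus strand) has 1, reached by 63% of exons. The upstream windows are shown with the TCTT motif in capitals, the exons in lower case.
Ptbp2 34-base exon: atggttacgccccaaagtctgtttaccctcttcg
Ptbp2 upstream: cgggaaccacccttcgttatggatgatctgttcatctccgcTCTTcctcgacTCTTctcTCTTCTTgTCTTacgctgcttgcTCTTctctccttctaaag
Ptbp1 34-base exon: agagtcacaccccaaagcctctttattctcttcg
Ptbp1 upstream: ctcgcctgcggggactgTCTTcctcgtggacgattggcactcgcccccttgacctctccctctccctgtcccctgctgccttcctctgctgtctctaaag

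The libraries held 11221023 to 19652197 estimated counts, and the Neg ESC libraries span that whole range. The 3 targeted genes were lower in the 3xKD libraries with no overlap between groups: Pcx by log2 changes of -1.14 in ESCs and -1.05 in EpiLCs day 2, Me1 by -0.89 and -1.05, and Me2 by -0.95 and -0.98. Naive pluripotency markers summed to 5099 to 5258 CPM (estimated counts scaled to a common library size with TMM factors) in Neg ESCs, 3986 to 4062 in 3xKD ESCs, 308 to 322 in Neg EpiLCs and 454 to 469 in 3xKD EpiLCs. Formative markers ran the other way, from 269 to 282 and 301 to 309 in the ESC groups to 3071 to 3440 in Neg EpiLCs and 1763 to 1828 in 3xKD EpiLCs. The labels of state therefore match the markers. The 3xKD groups also differ from Neg in both marker sums, and their part in the results below was not tested. In bulk RNA, fewer cells of a kind and less RNA per cell cannot be told apart.

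Pkm rose in 3xKD cells of both states, and by TPM, which is per length, it stood at 1.33 to 2.57 times Ptbp1 in every library. Its CPM was 2973, 3118 and 2924 in the 3 Neg ESC libraries, against 4282, 4287 and 4267 in the 3xKD ESC libraries. In EpiLCs day 2 it was 3671, 3634 and 3728 in Neg, against 4271, 4178 and 4241 in 3xKD. The 3xKD libraries lay above the Neg libraries of the same state with no overlap, and the Neg EpiLCs lay above the Neg ESCs. In ESCs the rise was 1.42-fold (log2 change 0.51, SE 0.033, adjusted p = 2.39e-09 in edgeR's quasi-likelihood fit), while EpiLCs day 2 showed 1.15-fold (log2 change 0.20, SE 0.033, adjusted p = 8.66e-05). With offsets for transcript length the EpiLC change did not pass (0.14, adjusted p = 0.0147), and the Pkm TPM group means were 1565 in Neg and 1550 in 3xKD EpiLCs. In ESCs the TPM means were 1016 in Neg and 1388 in 3xKD, with overlap: Neg reached 1263 and the lowest 3xKD value was 1226. The effect was smaller in EpiLCs day 2: the difference of the log2 changes was -0.31 (SE 0.046, adjusted p = 0.000162). From ESCs to EpiLCs, Pkm rose by 0.29 on the log2 scale in Neg (adjusted p = 1.07e-06), while in the 3xKD line the change was -0.02 (adjusted p = 0.739), and that sign depended on the scaling.

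**Figure D1:**
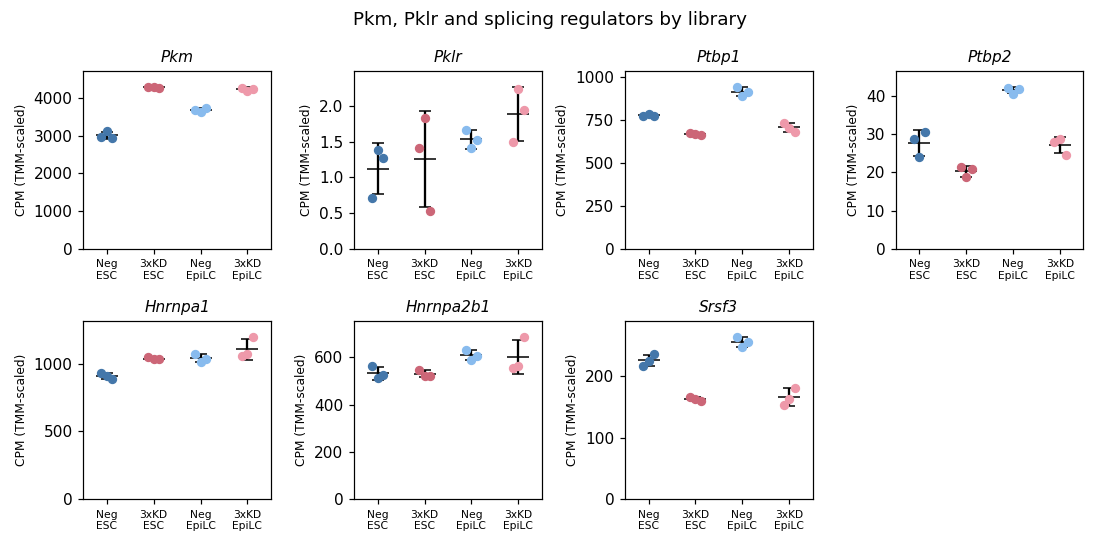
CPM of the 7 genes in the 12 libraries, in 4 groups of 3. Each point is a library, the horizontal line the group mean and the whiskers 1 SD; the axis of each panel is in CPM. The Pkm points of the 3xKD line sit at 4178 to 4287 in both states.

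Pklr was near the limit of detection, with 8 to 35 counts and 0.52 to 2.24 CPM per library, and the ratio of Pkm to Pklr by TPM ran from 997 to 11582. Its groups overlapped within each state and the log2 changes were 0.14 in ESCs (adjusted p = 0.815) and 0.30 in EpiLCs (adjusted p = 0.553).

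Of the 7 genes, 2 were higher and 3 lower in 3xKD than Neg ESCs at an adjusted p under 0.01, where 31.6% of the 25446 genes tested were past that limit (15.6% higher, 16% lower), and 5 genes had groups that do not overlap, where 49% of all genes did. In EpiLCs day 2, 1 was higher and 3 lower, against a background of 29.9% (14.3% higher, 15.6% lower), and 4 had groups that do not overlap, against 47.2%. No member passed that limit together with a log2 change over 0.58 in ESCs in edgeR's test (15.3% of genes did; 5 members had an unadjusted p under 0.05, and DESeq2 called 0), and 2 members, Ptbp2 and Srsf3, did so in EpiLCs, both lower, where 13.2% of genes were called and 5.35% were called lower. With library-size scaling or length offsets 0 were called in EpiLCs, and 1 without 3xKD EpiLC replicate 1 or 3.

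Ptbp1, the main repressor of the M1 exon in proliferating cells, was lower in 3xKD libraries. Neg ESCs held 776, 783 and 775 CPM and 3xKD ESCs 673, 669 and 666. Neg EpiLCs held 943, 890 and 912 CPM, and 3xKD EpiLCs 735, 705 and 682. Neither pair of groups overlapped: the log2 change was -0.22 in ESCs (SE 0.034, adjusted p = 5.43e-05) and -0.37 in EpiLCs (SE 0.034, adjusted p = 1.54e-07). The difference between these 2 changes was -0.15 (adjusted p = 0.0366) and did not pass the limit of 0.01. Neg EpiLCs were 0.23 above Neg ESCs (adjusted p = 2.01e-05), and in 3xKD cells the change between states was 0.08 (adjusted p = 0.07).

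Ptbp2 was low throughout, and lower still in the 3xKD libraries. Its CPM was 28.7, 24.0 and 30.6 in Neg ESCs and 21.3, 18.7 and 21.0 in 3xKD ESCs. In Neg EpiLCs it was 42.1, 40.6 and 41.9, and in 3xKD EpiLCs 28.0, 28.6 and 24.7. The groups did not overlap in either state. The log2 change was -0.45 in ESCs (SE 0.086, adjusted p = 0.00041) and -0.62 in EpiLCs (SE 0.082, adjusted p = 1.19e-05), the latter past both limits. With offsets for transcript length neither change passed the limit on p (-0.71, adjusted p = 0.0229, and -0.79, adjusted p = 0.013). Between states it rose by 0.579 in Neg (SE 0.082, adjusted p = 1.69e-05), just under the limit of 0.58, and by 0.42 in 3xKD (adjusted p = 0.000769). By TPM, Ptbp1 was 35.7 to 102 times Ptbp2 in a library, a ratio that the short Ptbp1 transcripts enter as well. The CPM ratio had means of 28.4 ± 3.86 in Neg ESCs and 33.0 ± 2.35 in 3xKD ESCs (SD, n = 3). In EpiLCs its means were 22.0 ± 0.331 in Neg and 26.1 ± 1.52 in 3xKD (SD, n = 3).

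Srsf3, an SR protein that promotes exon inclusion, fell in both states. Its CPM was 216, 225 and 235 in Neg ESCs, against 166, 162 and 159 in 3xKD ESCs. Neg EpiLCs had 264, 248 and 256, against 154, 163 and 182 in 3xKD EpiLCs. No 3xKD value reached a Neg value. The log2 change was -0.48 in ESCs (SE 0.051, adjusted p = 9.21e-07) and -0.62 in EpiLCs (SE 0.051, adjusted p = 4.1e-08). The Neg rise between states, 0.18 (adjusted p = 0.00702), did not pass without any one of Neg ESC replicates 1 and 2, 3xKD ESC replicate 2 and Neg EpiLC replicates 1 and 3 (adjusted p = 0.0104 to 0.0377, edgeR).

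Hnrnpa1 and Hnrnpa2b1 moved less. Hnrnpa1 had 930, 910 and 886 CPM in Neg ESCs and 1048, 1033 and 1031 in 3xKD ESCs, with no overlap, and rose by 0.19 on the log2 scale (SE 0.043, adjusted p = 0.00163; adjusted p = 0.0116 without Neg ESC replicate 3). In EpiLCs it had 1071, 1012 and 1033 in Neg and 1057, 1068 and 1195 in 3xKD, and those groups overlapped (0.09, adjusted p = 0.108). By TPM the ESC groups of Hnrnpa1 overlapped too, with means of 427 in Neg and 439 in 3xKD. Hnrnpa1-204, annotated as a target of nonsense-mediated decay, rose by 0.69 in 3xKD ESCs (adjusted p = 0.000632, edgeR). It also rose by 0.57 between the Neg states (adjusted p = 0.00172, edgeR). Hnrnpa2b1 had group means of 533 and 530 CPM in ESCs and 608 and 601 in EpiLCs, with log2 changes of -0.01 (adjusted p = 0.969) and -0.02 (adjusted p = 0.879). Among its transcripts Hnrnpa2b1-201, with 27.7 to 34.9% of its counts by group, fell by 0.37 in 3xKD EpiLCs (adjusted p = 0.00304), and Hnrnpa2b1-210 rose by 0.52 between the Neg states (adjusted p = 0.00341). Neg EpiLCs were above Neg ESCs by 0.19 for Hnrnpa1 (adjusted p = 0.00132) and by 0.19 for Hnrnpa2b1 (adjusted p = 0.0208).

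Across states in the Neg line, 5 of 7 members were higher in EpiLCs day 2 at the limit on p, where 35.7% of genes changed and 17.5% were higher, and all 7 had groups that do not overlap (51.7% of genes). Pklr was apart only by 1.38 CPM, its highest in Neg ESCs, against 1.41, its lowest in Neg EpiLCs (adjusted p = 0.398, edgeR). Its counts overlapped. In the 3xKD line 1 member, Ptbp2, passed, being higher in EpiLCs, where 33.8% of genes passed and 15.9% were higher, and 4 members had groups that do not overlap (51.7% of genes). None of the 7 passed both limits between states in edgeR's test (20.8% of genes in Neg, 18.7% in 3xKD). Ptbp2 in Neg fell just short of 0.58, at a log2 change of 0.579. At an unadjusted p under 0.05 the counts were 6 in Neg and 4 in 3xKD, and DESeq2 called 1 and 0 past both limits. Pkm alone passed the test of the difference of the 3xKD effect between the states, with a lower effect in EpiLCs, where 10% of genes passed and 5.27% were lower.

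**Figure D2:**
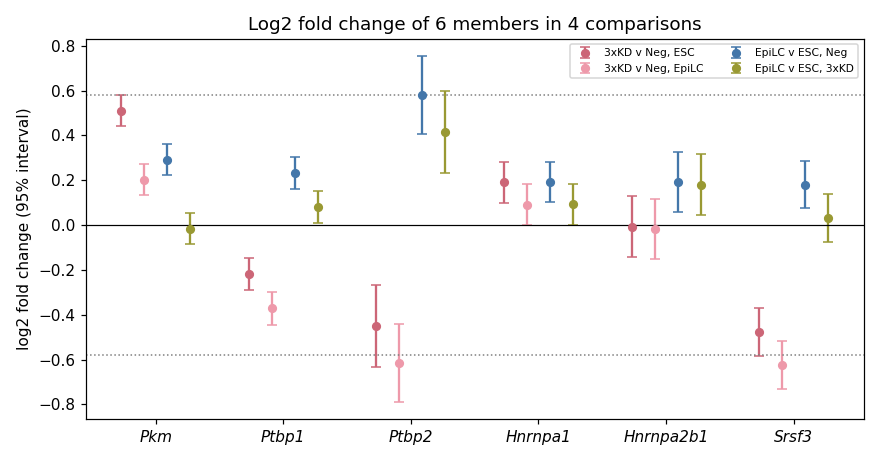
Log2 fold changes of 6 members (Pklr is left out for its low counts) in 4 comparisons, with points for the fitted change, bars for the 95% confidence interval and dotted lines at 0.58 either way. Pkm is above 0 and Ptbp1, Ptbp2 and Srsf3 are below 0 in both 3xKD comparisons.

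Pkm was read mainly as its M2 form. Pkm-201, which carries the M2 exon, took 90.5 to 94.6% of Pkm counts and 71.1 to 81.0% of Pkm TPM per library, and Pkm-202, which carries the M1 exon, took means of 2.14 to 3.49% per group. The other transcript with M1, Pkm-203, was listed at 0, as was Pkm-210. The share of M1 among the M1 and M2 forms, by TPM, was 3.08, 1.80 and 3.23% in Neg ESCs and 2.41, 2.86 and 3.37% in 3xKD ESCs. In EpiLCs it was 5.11, 3.75 and 4.51% in Neg and 3.92, 3.63 and 5.27% in 3xKD. These rest on 645 to 2845 estimated counts of Pkm-202 per library, over the whole transcript and not only the M1 exon. Pkm-201 and Pkm-202 also differ in length, at 2432 and 2041 bases, so bases outside the 2 exons can enter the split.

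The M1 share did not differ between the lines beyond the replicate spread. 3xKD minus Neg was 0.175 percentage points in ESCs (exact permutation test, two-sided, p = 0.8) and -0.182 in EpiLCs (exact permutation p = 0.9); 3 against 3 libraries can give no p under 0.1. EpiLCs lay above ESCs in both lines, by 1.75 points in Neg and 1.39 in 3xKD, with no overlap and p = 0.1, the smallest exact p, in each. Over both lines, ESCs spanned 1.80 to 3.37% and EpiLCs 3.63 to 5.27% (n = 6 each). Markers of neurons and muscle, cells that use M1, moved with state as follows. Summed neuron markers were at 58.2 to 60.1 CPM in Neg ESCs and 43.1 to 44.4 in Neg EpiLCs, and 51.3 to 53.0 against 49.2 to 55.4 in 3xKD. Muscle markers were at 211 to 253 and 105 to 132 in Neg, and 125 to 133 and 46.4 to 47.3 in 3xKD. None of these markers was at 0 in a group. The sums follow the most abundant genes: Tubb3 gave 46.5 of the Neg ESC and 15.4 CPM of the Neg EpiLC neuron sum, while by gene 4 of the 8 neuron markers rose and 1 fell between the Neg states (median log2 change 1.64), among them Elavl3, from 5.08 to 15.7 CPM. In 3xKD 2 rose and 1 fell (median 0.94). Of 7 muscle markers 0 rose and 2 fell in each line (edgeR's test, medians 0.05 in Neg and 0.34 in 3xKD). These counts are at an adjusted p under 0.01. Of all genes 35.7% passed it between the Neg states (17.5% higher) and 33.8% between the 3xKD states (15.9% higher). Dcx, Syt1 and Elavl4 were low, with means of 0.851, 1.75 and 3.36 CPM in Neg EpiLCs. The part of the neuron and muscle markers in the M1 share was not tested.

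**Figure D3:**
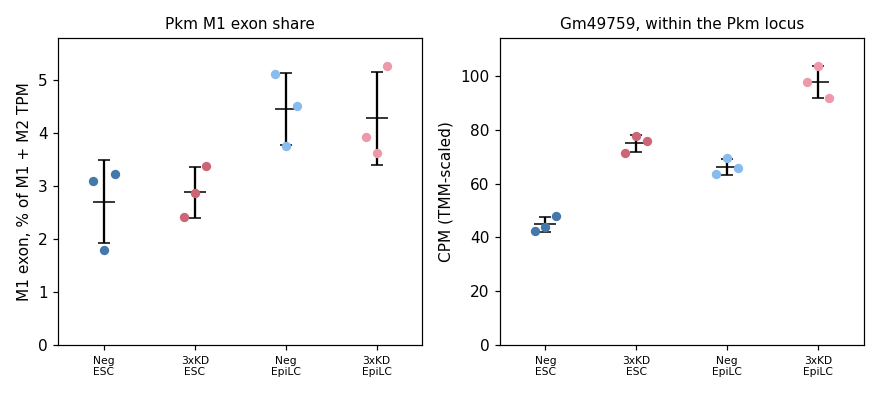
Share of the M1 form among the M1 and M2 forms of Pkm in percent of TPM (left), and the CPM of Gm49759 (right); a point is a library, with the group mean and 1 SD. The EpiLC points lie at 3.63 to 5.27% and the ESC points at 1.80 to 3.37%.

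By transcript, the Pkm rise in 3xKD cells was carried by Pkm-201, with log2 changes of 0.46 in ESCs (SE 0.022, adjusted p = 1.43e-06) and 0.19 in EpiLCs (adjusted p = 0.000421). Pkm-205, annotated as a retained intron, rose by 0.71 in ESCs (adjusted p = 0.000834) and 0.70 in EpiLCs (adjusted p = 0.00098), with a difference of -0.01 (adjusted p = 1), and also between states, by 0.52 in Neg (adjusted p = 0.00478) and 0.51 in 3xKD (adjusted p = 0.0062). Pkm-206 rose by 1.15 in 3xKD ESCs (adjusted p = 0.00895). Pkm-202 had log2 changes of 0.56 (adjusted p = 0.22) and 0.13 (adjusted p = 0.884) in the 3xKD comparisons and 1.02 between Neg states (SE 0.23, adjusted p = 0.0177). Of all transcripts, 4.92% passed the limit in the ESC comparison, 4.47% in the EpiLC one, 6.28% between the Neg states, 5.19% between the 3xKD states and 0.553% in the difference, which Pkm-201 passed (-0.27, adjusted p = 0.0025). As a share of the gene, Pkm-201 had a log2 odds difference of -0.57 between the Neg states (SE 0.098, adjusted p = 0.0335, limma), which did not pass 0.01, as 0.364% of transcripts did. The other Pkm transcripts, Pkm-204, Pkm-207, Pkm-208, Pkm-209 and Pkm-211, took under 2% of Pkm counts in each group. By TPM, which weights short transcripts up, Pkm-208 held 5.48 to 11.9% per library and Pkm-211 0 to 6.09%.

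Gm49759, an unclassified gene model on the same strand at chr9:59580097-59583983 that spans both exons, carries 1.88% as many counts as Pkm. Its reads cannot be told apart from unspliced Pkm RNA. It stood at 42.5, 44.1 and 48.1 CPM in Neg ESCs, 71.3, 77.6 and 75.9 in 3xKD ESCs, 63.7, 69.5 and 65.7 in Neg EpiLCs and 97.7, 104 and 91.8 in 3xKD EpiLCs. The groups do not overlap between lines in either state, and the log2 changes were 0.77 (adjusted p = 9.49e-09) and 0.58 (adjusted p = 1.8e-07). Parp6, upstream of Pkm, changed by 0.55 (adjusted p = 0.000136) and 0.35 (adjusted p = 0.00607), and Gramd2a, downstream, by 1.11 (adjusted p = 0.00034) and 0.06 (adjusted p = 0.854). Celf6, also upstream, was low, with a mean of 0.503 CPM, and had -0.21 (adjusted p = 0.831) and 0.62 (adjusted p = 0.305, edgeR). Between states Celf6 had 1.15 in Neg (adjusted p = 0.0881) and 1.98 in 3xKD (adjusted p = 0.0039, edgeR). Gene models with near-identical sequence held 2.14% as many counts as Pkm, most of it Gm49759 within the locus, 0.933% for Hnrnpa1 and 0.255% for Srsf3, so reads could be split between them.

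For Srsf3, 1 transcript in each state passed the test of its share of the gene's counts. Srsf3-202, a coding form, took 7.68, 10.5 and 12.5% in the Neg ESC libraries against 3.85, 3.58 and 3.68% in 3xKD ESCs. The EpiLC values were 17.0, 14.9 and 12.9% for Neg and 6.51, 8.69 and 7.90% for 3xKD. Srsf3-204, annotated as a retained intron, went the other way. Neg ESCs gave 8.29, 8.15 and 9.26% and 3xKD ESCs 14.2, 11.6 and 13.7%, while Neg EpiLCs gave 7.71, 9.06 and 8.34% and 3xKD EpiLCs 16.4, 14.2 and 14.8%. Within a state, no Neg and 3xKD values overlapped for either transcript. Tested as shares with limma, on a log2 odds scale, Srsf3-202 fell by 1.53 in ESCs (SE 0.211, adjusted p = 0.00384) and the change in EpiLCs was -1.07 (adjusted p = 0.0249); Srsf3-204 had 0.69 in ESCs (adjusted p = 0.0197) and rose by 0.96 in EpiLCs (SE 0.131, adjusted p = 0.00396). At the limit of 0.01, Srsf3-202 passed in ESCs and Srsf3-204 in EpiLCs. Of the transcripts tested, 1.62% passed in ESCs and 1.4% in EpiLCs. A second test of the transcript usage of whole genes (edgeR's diffSpliceDGE) called Srsf3 in both states, where it called 1.34% of genes in ESCs and 1.24% in EpiLCs, but this test did poorly on simulated data and its calls are not leaned on.

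In level, Srsf3-202 fell in 3xKD cells of both states, by log2 changes of -1.99 (adjusted p = 0.000253) and -1.60 (adjusted p = 0.00101), and was 1.12 higher in 3xKD EpiLCs than in 3xKD ESCs (adjusted p = 0.00793). Srsf3-201, annotated as a target of nonsense-mediated decay and the form with 49.2 to 64.9% of the gene's counts, had -0.39 in ESCs (adjusted p = 0.0215) and fell by 0.74 in EpiLCs (adjusted p = 0.000471). Srsf3-207, with no defined coding sequence, fell by 1.46 in ESCs (adjusted p = 0.00218), and had -0.99 in EpiLCs (adjusted p = 0.0216). Srsf3-204 had changes of 0.10 (adjusted p = 0.742) and 0.21 (adjusted p = 0.387). A 456-base exon at chr17:29258428-29258883 is held by Srsf3-201 and skipped by Srsf3-202, and Srsf3 protein is known to promote its use. Of the TPM of these transcripts, Srsf3-201 took 85.3% ± 3.56 in Neg ESCs and 94.6% ± 0.330 in 3xKD ESCs (SD, n = 3). The EpiLC values were 79.0% ± 2.85 in Neg and 87.2% ± 1.82 in 3xKD (SD, n = 3). This share was higher in 3xKD by 9.31 and 8.14 points, with groups that do not overlap and an exact permutation p of 0.1 in each. It rests in part on the same fall of Srsf3-202 and does not by itself show more use of the exon. Of all Srsf3 counts, the share of Srsf3-201 had log2 odds differences of 0.32 in ESCs (adjusted p = 0.292, limma) and -0.22 in EpiLCs (adjusted p = 0.477, limma). The forms have 2594 and 2618 bases and differ outside the exon too, so the share is not of that exon alone. The exons compared here were chosen after the transcript levels had been seen.

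**Figure D4:**
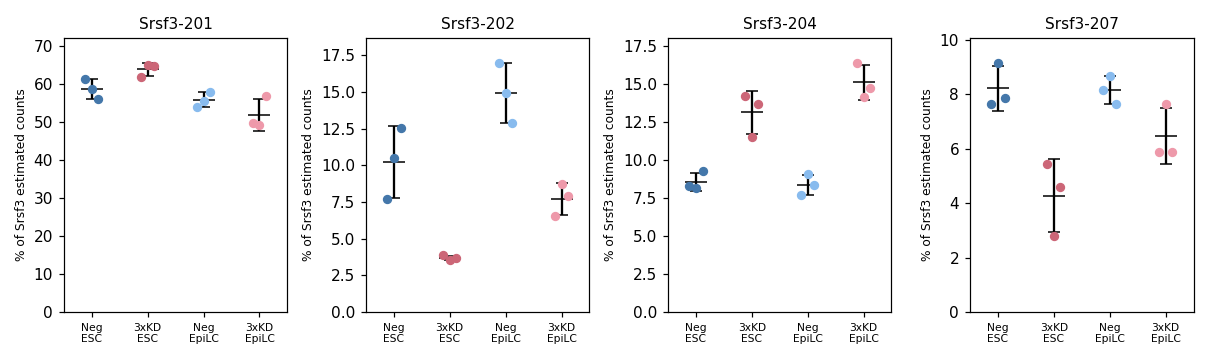
Share of Srsf3 estimated counts by transcript, in percent, for each library of the 4 groups with the group mean and 1 SD. Srsf3-202 is lower and Srsf3-204 higher in the 3xKD libraries of both states, with no overlap within a state.

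For the other regulators the exons of interest showed smaller or less stable differences. The 34-base exon of Ptbp1 was held by 96.0, 98.3, 90.2 and 97.8% of TPM on average in Neg ESCs, 3xKD ESCs, Neg EpiLCs and 3xKD EpiLCs. The 3xKD EpiLCs were higher than Neg EpiLCs by 7.63 points with no overlap (exact permutation p = 0.1), and the ESC groups overlapped (p = 0.3 by the exact test). Ptbp1-201, the decay form that skips this exon, was estimated at 0 in 3xKD ESC replicates 1 and 3 and 3xKD EpiLC replicate 1. Ptbp1-207, also annotated as a decay form, was at 0 in the Neg EpiLCs and had 132 to 195 counts in the 3xKD EpiLCs. A 78-base exon of Ptbp1 (chr10:79695951-79696028) had 36.6% in Neg and 43.5% in 3xKD ESCs, and 32.0 and 37.2% in the EpiLC groups, with no overlap in either (exact permutation p = 0.1 each). Ptbp1-216, which holds it, has 3110 bases and Ptbp1-202, which skips it, 2598, so the share is not of that exon alone. As a share of the gene's counts, Ptbp1-216 had adjusted p = 0.386 in ESCs and 0.587 in EpiLCs (limma). Ptbp2's 34-base exon was in 63.5, 59.8, 63.3 and 70.4% in the same order, with overlap between lines in both states. Hnrnpa2b1-202, which holds a 36-base exon (chr6:51444371-51444406), took 57.4, 57.6, 55.8 and 64.5% of the TPM of Hnrnpa2b1-201 and Hnrnpa2b1-202. On this share 3xKD EpiLCs were 8.70 points above Neg EpiLCs, with no overlap and an exact permutation p of 0.1. These forms have 10 and 12 exons and differ outside the 36-base exon too, so the share is not of that exon alone. As transcripts, Ptbp1-202 fell by 0.44 in 3xKD ESCs (adjusted p = 0.000525) and by 0.55 in EpiLCs (adjusted p = 0.000128), rose by 0.35 between the Neg states (adjusted p = 0.00169), and its share test gave adjusted p = 0.105 and 0.139 in the 3xKD comparisons.

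Over all genes, 15.6% were higher and 16% lower in 3xKD ESCs, 14.3% and 15.6% in 3xKD EpiLCs, and 35.7% changed between the Neg states, 17.5% being higher; the lists of related genes are to be read against these shares. Of 26 hnRNP family genes, 5 rose and 11 fell in ESCs (median log2 change -0.10, against 0.03 over all genes) and 2 rose and 14 fell in EpiLCs (median -0.12, against 0.03), while 16 rose and 4 fell between the Neg states (median 0.19, against 0.01). Hnrnph3 rose by 0.76 in 3xKD ESCs (adjusted p = 6.09e-08), and Ptbp3, another PTB paralog, fell by 0.87 between Neg states. The list includes Ptbp1, Ptbp2, Hnrnpa1 and Hnrnpa2b1.

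Of 19 SR family genes and their kinases, Srsf3 among them, 5 rose and 10 fell in 3xKD ESCs (median -0.21), and 3 rose and 12 fell in EpiLCs (median -0.36), against 15.6% and 16% of all genes in ESCs and 14.3% and 15.6% in EpiLCs. The 3xKD effect was lower in EpiLCs than in ESCs for 6 of them by the test of the difference, where 5.27% of genes were. Between Neg states 10 rose and 1 fell (median 0.16). Past both limits, Srsf6 fell by 1.08 in ESCs (adjusted p = 1.27e-10) and by 0.87 in EpiLCs, and Srsf2 by 0.69 and 0.67. Clk4, a kinase of SR proteins, rose by 0.74 in ESCs, and Srsf10 fell by 0.80 in EpiLCs.

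Of 14 other cofactors and upstream factors of Pkm and PTB splicing, 4 rose and 8 fell in 3xKD ESCs (median -0.28), 3 rose and 6 fell in EpiLCs (median -0.21), and 9 rose and 1 fell between Neg states (median 0.47). Of all genes, 15.6% rose and 16% fell in ESCs, and 14.3% and 15.6% in EpiLCs. Myc, whose protein activates Ptbp1, Hnrnpa1 and Hnrnpa2b1 transcription, fell by 2.10 in 3xKD ESCs (adjusted p = 4.39e-07) and was 3.61 higher in Neg EpiLCs than Neg ESCs; Mycn fell by 1.05 in ESCs and by 1.81 in EpiLCs (adjusted p = 6.35e-13). Raver2, a PTB cofactor, rose by 0.78 in ESCs, Rbm4b fell by 0.66 in EpiLCs, and Egln3 and Srrm4 rose by 1.76 and 1.38 between Neg states.

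Of 16 genes around phosphoenolpyruvate and pyruvate, which include the 3 targeted genes, 9 rose and 3 fell in 3xKD ESCs (median 0.47), and the 3 that fell are the targets; 6 rose and 3 fell in EpiLCs (median 0.09). The shares of all genes were again 15.6% and 16%, and 14.3% and 15.6%. Eno2, a neuronal enolase, rose by 2.13 in ESCs and 1.57 in EpiLCs, and Pck2, the mitochondrial enzyme that makes phosphoenolpyruvate, by 1.43 and 1.74. Pck1, its cytosolic form, rose by 2.99 in EpiLCs and Ldhb, a lactate dehydrogenase, by 1.62 in ESCs. Between Neg states 4 rose and 8 fell (median -0.23), with Eno3 up by 1.24, Eno2 down by 1.14 and Mpc1, a subunit of the pyruvate carrier, down by 1.07.

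The genes whose levels were most like Pkm's over the 12 libraries, among 9634 genes of at least 10 CPM, were Fxr2, Opa1 and Prc1 (Pearson r of log2 CPM 0.99 each) and Mdc1 and Lpar2 (0.98 each). For Ptbp1 they were Nup50, Zzz3, Faf2, Otud4 and Brix1, each at 0.99. The 12 libraries fall into 4 groups and share their replicates' group means, so these are descriptions and no p is given.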

How the data were processed

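Single-end RNA-seq libraries were made with a directional, rRNA-depleted protocol and, per the labels' notes, trimmed with Trim Galore 0.6.7, aligned with STAR 2.7.9a to GRCm39 and quantified with Salmon 1.10.1. The deposited tables, made by the authors, give per transcript an estimated count (NumReads) and a TPM; the sums per gene use the deposited transcript-to-gene table. State was taken from the titles. The molecule field names polyA RNA while the protocol states rRNA depletion, and the protocol was followed.

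Estimated counts were rounded and tested with edgeR 4.0.16 (quasi-likelihood, TMM, genes of at least 10 counts in all, 12 libraries, 4 groups, R 4.3.3), with Benjamini-Hochberg adjustment over 25446 genes. Calls were made at 0.01 for the adjusted p together with 0.58 for the size of the log2 change; the difference of the 3xKD effect needed the limit on p. The M1 share and the exon shares are of the TPM of transcripts that hold or skip the exon, not of reads on the exon. Other transcript shares are of estimated counts unless TPM is named. The members and lists were chosen with earlier results of these data known. Named were the 7 members, each Pkm transcript, the tested genes within 50000 bases of Pkm and the Pkm copy with the most counts. The 5 most alike and the 3 largest calls of each list were named too. Of the regulators' transcripts, those from 5% of their gene's TPM that passed the test of level were named, and those that passed the test of shares. Some others under 5% of TPM are named as well, but not all that passed.

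The fixed test of transcript usage (diffSpliceDGE) was tested on simulated data, where it missed most planted changes and part of its calls fell on unchanged genes; a limma 3.58.1 test of shares was added after this and after the first test's calls had been seen, and it too missed many. The gene test recovered most changes. Alternatives were RLE, upper-quartile and library-size scaling, other filters, length offsets, DESeq2 1.42.0 and leaving out each library.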

Additional observations from a re-analysis of the deposited data

Results flagged for a closer look

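The rise of Pkm in 3xKD cells was 0.51 on the log2 scale in ESCs and 0.20 in EpiLCs day 2, and the interaction term of the same fit gave a difference of -0.31 (SE 0.046, adjusted p = 0.000162 by edgeR), which is why this gene was singled out. By CPM, in ESCs 3 of 3 3xKD libraries lay above all 3 Neg libraries, and in EpiLCs 3 of 3 did too. By TPM the lines overlapped in both states. Between the states, the change was 0.29 in Neg (adjusted p = 1.07e-06, edgeR) and -0.02 in 3xKD (adjusted p = 0.739, edgeR).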

How the results depend on the processing

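The Pkm change in 3xKD ESCs and the difference of the 3xKD effect on Pkm kept direction and call under every alternative run. In EpiLCs the Pkm change did not pass with offsets for transcript length (0.14, adjusted p = 0.0147). Pkm between the 3xKD states, -0.02, changed sign with RLE (0.013), upper-quartile (0.057), library-size (0.021), no filter (0.0068) and DESeq2 (0.013) settings, and did not pass in any of them. Among the 7 members, calls past both limits numbered 2 in ESCs with length offsets (0 otherwise), 0 in EpiLCs with library size alone or length offsets (2 otherwise), 1 between Neg states with RLE, upper-quartile, the replicate block or DESeq2 (0 otherwise), and 2 in the difference with DESeq2. Leaving out 1 library gave 0 to 0, 1 to 2, 0 to 1, 0 to 0 and 1 to 3 in the 5 comparisons: 1 in EpiLCs without 3xKD EpiLC replicate 1 or 3, 1 between Neg states without Neg ESC replicate 1 or 3, 3xKD ESC replicate 1, Neg EpiLC replicate 1 or 2, or 3xKD EpiLC replicate 3, and in the difference 2 without Neg EpiLC replicate 2 and 3 without 3xKD EpiLC replicate 3. Pkm changes then ran from 0.49 to 0.54, 0.20 to 0.21, 0.27 to 0.33, -0.02 to -0.0027 and -0.34 to -0.29, and M1 share differences from -0.28 to 0.44, -0.68 to 0.15, 1.30 to 2.10 and 0.90 to 1.72 points. Pkm usage was called 0 times in the fixed test, and 2 times without Neg ESC replicate 2. Genes within noise also changed sign: Pklr with length offsets in ESCs (-0.35) and between Neg states (-0.057); Hnrnpa2b1 in ESCs with upper-quartile (0.015), no filter (0.00022) and length offsets (0.029), in EpiLCs with library size (0.042) and no filter (0.015), and in the difference with RLE (0.000403), library size (0.062), filterByExpr (0.0049), no filter (0.015) and DESeq2 (0.00062); and Srsf3 in the difference with length offsets (0.16). Leaving out 1 library moved Pklr in ESCs between -0.23 and 0.50 and in the difference between -0.20 and 0.53, Hnrnpa2b1 between -0.036 and 0.036 in ESCs, -0.12 and 0.039 in EpiLCs and -0.14 and 0.045 in the difference, and Srsf3 between the 3xKD states between -0.028 and 0.087. The cause was not tested.

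Replicate numbers did not pair the libraries: deviations correlated at -0.136 to 0.101 over 12 pairs. With the replicate block, Srsf3-202 had adjusted p = 0.0174 in ESCs and Srsf3-204 0.017 in EpiLCs; leaving out a library gave 0.00216 to 0.0191 and 0.00474 to 0.0182. The fixed usage test called Srsf3 in ESCs and EpiLCs (adjusted p = 6.57e-05 and 0.00162) and Ptbp1 in EpiLCs (adjusted p = 0.00143); the share test called Ptbp1 0 times. Misses of either test say little. Depth limits Pklr, and the M1 share by 645 to 2845 estimated counts of Pkm-202.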
